A study of Mus musculus with 12 samples.

Results

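The Fc receptors described here are 6 genes of peritoneal macrophages, Fcgr1, Fcgr2b, Fcgr3, Fcgr4, Fcer1g and Fcgrt, taken by their symbols from tables of 16920 genes. All 6 were present in each of the 12 libraries, and all 6 passed the filter on low counts that left 12064 genes for testing. They were chosen as a gene family by symbol, with no threshold on their values. The macrophages came from C57BL/6 mice, either wild type (WT) or labelled Ythdf1-/- (KO), after 3 days of peritoneal irritation with 6% starch broth according to the series record, whereas the methods of the study name thioglycollate. After a night in culture the cells received either PBS or lipopolysaccharide (LPS, the cell wall component of Gram-negative bacteria) at 1 µg/mL, and RNA was taken at 6 h. Each of the 4 groups (WT PBS, WT LPS, KO PBS and KO LPS) held 3 libraries described as independent samples. The labels give neither age nor sex, while the study gives an age range of young adult mice for its experiments and names males for an immunoblot of such macrophages. The labels also name no Cre driver for the knockout and do not say how many mice went into a library. The comparisons ask how LPS changes the receptors, whether the KO label changes them at rest and after LPS, and whether the LPS response itself differs with the label.

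Macrophages use Fc receptors to sense antibody bound to a particle or an immune complex. The activating receptors FcγRI (Fcgr1), FcγRIII (Fcgr3) and FcγRIV (Fcgr4) bind the constant part of IgG and signal through the common gamma chain (Fcer1g), whose tyrosine motif (ITAM) is phosphorylated by Src family kinases and recruits Syk. The inhibitory receptor FcγRIIb (Fcgr2b) binds the same ligand but carries its own inhibitory motif (ITIM), which recruits the lipid phosphatase SHIP1, and the balance of activating and inhibitory receptors is known to set the threshold of the cell for immune complexes. FcRn, the product of Fcgrt, pairs with β2-microglobulin (B2m) and binds IgG inside endosomes, where it returns antibody to the cell surface.

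Total deposited counts lay between 21546274 and 22017005 per library, so depth was nearly even. Levels are given as CPM, normalised read counts relative to a library size scaled by the trimmed mean of M values (TMM). WT LPS replicate 1 stood apart from its group: its mean chi-square per gene was 32.8 against replicate 2 and 25.5 against replicate 3, while replicates 2 and 3 gave 3.08. Tests of the members that rest on WT LPS are therefore given with and without it, as is the gap between KO LPS and WT LPS in their ratios. The LPS changes of the ratios in WT, the group means and the per-length levels include it. The KO LPS libraries were not uniform either. There replicates 2 and 3 gave 16.7, and replicate 1 gave 7.43 against replicate 2 and 5.84 against replicate 3. Pairs within the PBS groups gave 2.77 to 4.69. The KO label was not matched by a loss of Ythdf1 mRNA. Ythdf1, which encodes the m6A reader named in the label, had mean levels of 43.5 CPM (WT) and 57.2 CPM (KO) at rest, and of 201.5 CPM (WT) and 197.7 CPM (KO) after LPS. By the edgeR quasi-likelihood test it was higher with the label at rest (log2 0.40 ± 0.058, SE; adjusted p = 0.000133) and was not called after LPS (log2 -0.028 ± 0.056; adjusted p = 0.724). The allele as the study draws it, made with CRISPR/Cas9, lacks a short internal exon and keeps the other exons, which hold most of the transcript. A count over the whole gene therefore does not check the label, and the comparisons are written for libraries labelled KO. The 8 macrophage markers summed to between 17200 and 19000 CPM in every library. The 7 B cell markers in the tables, from a cell type that also uses Fcgr2b, summed to 0.497 to 1.99 CPM, and the 6 NK cell markers, from a cell type that uses Fcgr3, to at most 0.29 CPM. Sums of several other lists moved with LPS. The 6 neutrophil markers in the tables summed to 5.64 to 6.94 CPM in WT PBS, 7.42 to 7.98 CPM in KO PBS, 11.8 to 14.5 CPM in WT LPS and 13.9 to 21.9 CPM in KO LPS, with S100a9 at no more than 0.0709 CPM. The 5 dendritic cell markers summed to 0.561 to 1.47 CPM under PBS, and to 10.8 to 12.4 CPM in WT LPS and 12.6 to 14 CPM in KO LPS, mostly from Ccr7. The 6 mast cell markers summed to 0.245 to 1.01 CPM under PBS, 144 to 150 CPM in WT LPS and 285 to 290 CPM in KO LPS, nearly all from Hdc, with Cpa3 at no more than 0.108 CPM. The 6 skeletal muscle markers summed to 17.8 to 23.7 CPM in WT PBS, 0.355 to 20.4 CPM in KO PBS, 30 to 35.6 CPM in WT LPS and 0.429 to 0.688 CPM in KO LPS. The 6 T cell markers summed to 35 to 39 CPM in WT PBS, 51 to 54.6 CPM in KO PBS, 10.1 to 14.5 CPM in WT LPS and 4.42 to 5.27 CPM in KO LPS, nearly all from Cd28 and Lck, with Cd3e, Cd3d and Cd3g at no more than 0.113 CPM. The part of these markers in the results was not tested. In bulk RNA, fewer cells of a type and less RNA per cell cannot be told apart.

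Fcgr2b and Fcgr3 are near copies of each other over the exons for their IgG-binding part, and this bears on the counts of both. The RefSeq models in build GRCm38.p6 place Fcgr2b at chr1:170960558-170976071 and Fcgr3 at chr1:171051169-171065915, both on the minus strand, with Fcgr4 between them at chr1:171018926-171029761 on the plus strand. Over their coding sequences the best alignment of Fcgr2b with Fcgr3 ran for 509 bases, of which 491 (96.5%) were identical, and the longest unbroken identical run was 129 bases, far longer than the 50-base reads. The window shown here surrounds that run in the GENCODE M21 transcripts and covers parts of exons 3 and 4. It spans chr1:170967980-170968111 and chr1:170966644-170966700 in Fcgr2b (coding bases 248 to 436), and chr1:171057691-171057822 and chr1:171054137-171054193 in Fcgr3 (coding bases 233 to 421), all on the minus strand. Capitals mark the 5 positions of 189 at which they differ.
Fcgr2b: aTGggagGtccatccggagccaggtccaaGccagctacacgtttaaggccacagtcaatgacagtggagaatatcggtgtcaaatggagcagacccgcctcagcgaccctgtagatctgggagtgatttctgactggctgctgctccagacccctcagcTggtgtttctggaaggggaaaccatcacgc
Fcgr3: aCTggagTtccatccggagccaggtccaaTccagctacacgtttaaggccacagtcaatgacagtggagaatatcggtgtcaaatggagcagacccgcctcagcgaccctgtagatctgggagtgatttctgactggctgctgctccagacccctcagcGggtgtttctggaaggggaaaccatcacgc
A 50-base read from this window that holds none of the capitals could come from either gene.

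Of the 1733 different 50-base words in the Fcgr3 transcripts, 166 (9.58%) also occurred in Fcgr2b and in no other gene, and Fcgr1, Fcgr4, Fcer1g and Fcgrt shared no such word with any other gene. Fcgr2b shared 249 of its 5685 words (4.38%) with 47 genes, of which 166 words (2.92%) were those of Fcgr3. The deposited counts carried the same mark. Both Fcgr2b and Fcgr3 had decimals in all 12 libraries, their sum was whole to within 0.011 in 12 of 12, and the other 4 members were whole throughout. The tables thus show reads divided between Fcgr2b and Fcgr3 by estimation, whereas their sum does not depend on that division, though it could on any division of Fcgr2b reads with other genes. The sum is tested after both genes have been described.

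The plot of member levels by library shows different shapes among the 6 genes. Fcgr1, Fcgr2b, Fcgr4 and Fcer1g were higher under LPS in both genotypes, Fcgr3 and Fcgrt were lower, and under LPS the KO and WT libraries did not overlap for Fcgr2b, Fcgr3, Fcgr4 and Fcgrt.

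**Figure D1:**
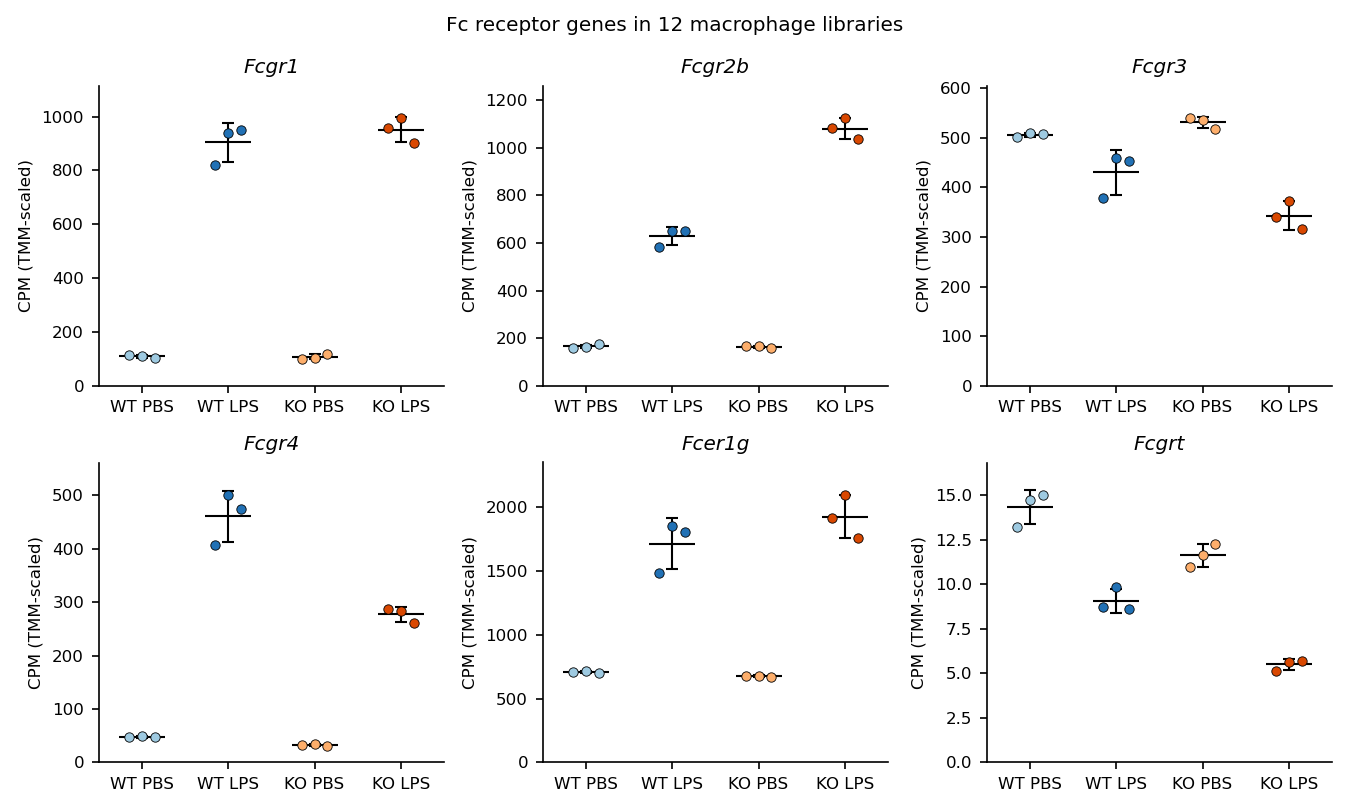
Level of each Fc receptor gene (vertical axis, TMM-scaled CPM from 0) in WT PBS, WT LPS, KO PBS and KO LPS. Points are libraries, 3 per group, and bars give the mean and SD. Fcgr2b reaches 1035 to 1124 CPM in KO LPS, above all WT LPS libraries, whereas Fcgr4 lies at 260.1 to 288 CPM there, below them.

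Among the activating receptors, Fcgr1, the high-affinity receptor that binds single IgG molecules, rose with LPS in both genotypes. Its level was 114.8, 111.1 and 103.3 CPM in WT PBS and 821.7, 939.2 and 950.2 CPM in WT LPS. In the KO-labelled libraries it was 100.2, 104.2 and 118.2 CPM under PBS and 958.2, 994.1 and 902.1 CPM under LPS. The groups with LPS lay clear of those with PBS, and within each treatment the WT and KO libraries overlapped. The LPS difference was 3.04 ± 0.080 on the log2 scale (SE; 8.24-fold) in WT with an adjusted p of 1.33e-15, and 3.15 ± 0.080 (8.85-fold) in KO with an adjusted p of 7.44e-16 by the edgeR quasi-likelihood test. For the KO label the log2 difference was -0.029 ± 0.075 under PBS and 0.074 ± 0.073 under LPS, with adjusted p of 0.816 and 0.445 by edgeR. The interaction, meaning the LPS difference in KO minus that in WT, was 0.10 ± 0.11 with an adjusted p of 0.559.

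Fcgr4, an activating receptor of mice for IgG2a and IgG2b, rose with LPS in both genotypes and was lower in the KO-labelled cells under either treatment. It stood at 47, 49.4 and 46.8 CPM in WT PBS and at 407.7, 501.1 and 473.6 CPM in WT LPS. Under the KO label it stood at 32, 35.1 and 30.6 CPM with PBS and at 287.9, 282.7 and 260.1 CPM with LPS. No KO library overlapped the WT libraries of the same treatment, and all 6 KO values were the lower ones. LPS raised it by 3.27 ± 0.081 on the log2 scale in WT (9.66-fold; adjusted p = 6.77e-16) and by 3.09 ± 0.082 in KO (8.50-fold; adjusted p = 1.24e-15, edgeR). Relative to WT, the KO-labelled libraries were 1.47-fold lower under PBS (log2 -0.55 ± 0.079; edgeR adjusted p = 0.000108) and 1.66-fold lower under LPS (log2 -0.73 ± 0.074; edgeR adjusted p = 1.42e-06). Its interaction was -0.18 ± 0.11 with an adjusted p of 0.272. Without WT LPS replicate 1 the interaction was -0.26 with an adjusted p of 0.0285 by edgeR, and the difference under LPS was -0.81.

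Fcgr3, the low-affinity activating receptor and the most abundant activating one per transcript length at rest, fell with LPS. Its level was 502.1, 509.5 and 507 CPM in WT PBS and 378.3, 458.6 and 453.3 CPM in WT LPS. In the KO-labelled libraries it was 539.6, 535.4 and 518.4 CPM under PBS and 339.5, 373.3 and 316.8 CPM under LPS. All LPS values lay under all PBS values, and the KO LPS libraries lay under the WT LPS ones. The LPS difference was -0.24 ± 0.073 on the log2 scale in WT (adjusted p = 0.00793) and -0.63 ± 0.074 in KO (adjusted p = 5.8e-07, edgeR). Fcgr3 did not differ by call under PBS (log2 0.069 ± 0.073; adjusted p = 0.534), although the KO libraries there were all above the WT ones, and under LPS it was 1.25-fold lower with the KO label (log2 -0.33 ± 0.074; edgeR adjusted p = 0.0021). The interaction of -0.39 ± 0.10 passed the test with an adjusted p of 0.0151 by edgeR. Without WT LPS replicate 1, which held the lowest WT LPS value, the LPS difference in WT was -0.15 (edgeR adjusted p = 0.0218), the label difference under LPS was -0.41 and the interaction was -0.48.

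Fcgr2b, the inhibitory receptor, rose with LPS in WT and rose further in the KO-labelled cells. It was at 158.6, 164.3 and 174 CPM in WT PBS and at 584.8, 648.2 and 650.9 CPM in WT LPS. With the KO label it was at 166.6, 165.6 and 157.3 CPM under PBS and at 1081, 1124 and 1035 CPM under LPS. At rest the genotypes overlapped, while every KO LPS library exceeded every WT LPS library. The LPS difference was 1.92 ± 0.062 in WT (3.79-fold; adjusted p = 2.14e-14) and 2.73 ± 0.064 in KO (6.62-fold; adjusted p = 2.57e-16, edgeR). With the KO label the level was 1.72-fold higher under LPS (log2 0.78 ± 0.060; edgeR adjusted p = 8.42e-08), against -0.022 ± 0.061 on the log2 scale under PBS (adjusted p = 0.833). The interaction was 0.80 ± 0.085 with an adjusted p of 1.13e-05, and 0.76 without WT LPS replicate 1 by edgeR.

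The division of reads between Fcgr2b and Fcgr3 moved with both LPS and the label. Fcgr2b received 24.6 ± 0.81% of the summed count in WT PBS, 59.4 ± 1.2% in WT LPS, 23.5 ± 0.19% in KO PBS and 75.9 ± 0.76% in KO LPS (SD, n = 3). The sum itself, which a division between the pair cannot alter, in WT was 671.8 ± 10.3 CPM under PBS and 1058 ± 82 CPM under LPS. In KO-labelled libraries the sum was 694.2 ± 16.3 CPM under PBS and 1423 ± 73.3 CPM under LPS. All KO LPS sums, from 1351 to 1498 CPM, exceeded the WT LPS sums of 963.5 to 1107 CPM. The summed count rose with LPS by 0.66 ± 0.062 on the log2 scale in WT and by 1.04 ± 0.062 in KO, with adjusted p of 4.65e-08 and 9.48e-11 by edgeR. It was 1.35-fold higher with the KO label under LPS (log2 0.43 ± 0.062; edgeR adjusted p = 4.98e-05), and its interaction was 0.38 ± 0.087 (adjusted p = 0.00665). With library totals alone as the scaling, the LPS difference of the sum in WT was -0.0069 with an adjusted p of 0.926 and in KO 0.23 with an adjusted p of 0.00352, and its interaction was 0.24 with an adjusted p of 0.0793 by edgeR. The sum moved in the direction of Fcgr2b, and a fall of Fcgr3 cannot be read from it. How far the estimated division fixed the opposite moves of Fcgr3 and Fcgr2b was not tested.

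**Figure D2:**
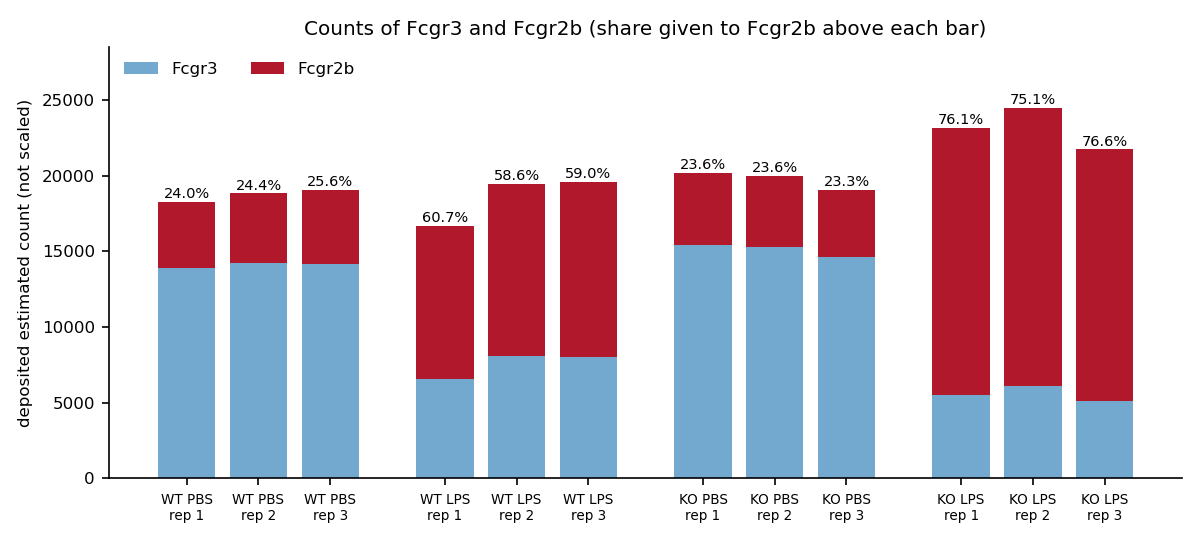
Deposited estimated counts (vertical axis, not scaled between libraries) of Fcgr3 (blue) and Fcgr2b (red), stacked for each of the 12 libraries, with the percentage given to Fcgr2b above the bar. The KO LPS bars are the tallest, and their Fcgr2b share of 75.1 to 76.6% lies above the 58.6 to 60.7% of WT LPS.

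Fcer1g, the common gamma chain on which the activating receptors depend, was the most abundant member on the CPM scale. Its values were 709.8, 711.9 and 700.7 CPM in WT PBS and 1482, 1852 and 1807 CPM in WT LPS. They were 676.6, 679.3 and 665.9 CPM in KO PBS and 1910, 2097 and 1761 CPM in KO LPS. The chain rose with LPS in both genotypes, by 1.28 ± 0.079 on the log2 scale in WT (2.42-fold; adjusted p = 1.61e-10) and by 1.51 ± 0.079 in KO (2.85-fold; adjusted p = 1.44e-11, edgeR). Under PBS the KO libraries all lay below the WT ones, yet the log2 difference of -0.070 ± 0.078 did not pass the test (adjusted p = 0.559). Under LPS the groups overlapped, with a log2 difference of 0.17 ± 0.078 and an adjusted p of 0.0997 by edgeR, and 0.072 without WT LPS replicate 1. That difference passed the test only when WT LPS replicate 2 (0.22; adjusted p = 0.04) or KO LPS replicate 3 (0.23; adjusted p = 0.0386) was left out. Its interaction was 0.24 ± 0.11 with an adjusted p of 0.157.

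Fcgrt, the heavy chain of FcRn, was the least abundant member and fell with both LPS and the label. It measured 13.2, 14.7 and 15 CPM in WT PBS and 8.73, 9.85 and 8.63 CPM in WT LPS. With the KO label it measured 11, 11.7 and 12.3 CPM under PBS and 5.16, 5.63 and 5.72 CPM under LPS. None of the 4 groups overlapped another, and KO LPS was the lowest. The LPS difference was -0.66 ± 0.088 in WT (1.58-fold lower; adjusted p = 3.22e-06) and -1.08 ± 0.099 in KO (2.12-fold lower; adjusted p = 2.6e-08, edgeR). The KO-labelled libraries were 1.65-fold lower under LPS (log2 -0.72 ± 0.11; edgeR adjusted p = 6.52e-05). At rest they were 1.23-fold lower (log2 -0.30 ± 0.080; edgeR adjusted p = 0.0119), a call that was lost without WT PBS replicate 3 (-0.26; adjusted p = 0.0597), KO PBS replicate 1 (-0.23; adjusted p = 0.0923) or KO PBS replicate 2 (-0.28; adjusted p = 0.0525). The interaction of -0.42 ± 0.13 lay near the threshold (adjusted p = 0.0396) and was kept in only 4 of the 12 fits that left out a library. B2m, the light chain of FcRn and of MHC class I, went the other way with LPS, from 1942 ± 98 to 4247 ± 743 CPM in WT and from 1930 ± 65.6 to 5040 ± 484 CPM in KO (log2 1.13 and 1.39, adjusted p of 8.74e-08 and 6.82e-09 by edgeR). The log2 difference of B2m for the label under LPS was 0.25 with an adjusted p of 0.0694. Without WT LPS replicate 1 the LPS difference of B2m in WT was 1.27.

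Without WT LPS replicate 1 the LPS difference in WT was 3.11 for Fcgr1, 3.35 for Fcgr4, 1.97 for Fcgr2b, 1.37 for Fcer1g and -0.64 for Fcgrt, and each kept its call by edgeR. The label difference under LPS was then 0.011 for Fcgr1, 0.73 for Fcgr2b and -0.75 for Fcgrt, and 0.37 for the sum of Fcgr2b and Fcgr3. The interaction was 0.041 for Fcgr1, 0.14 for Fcer1g, -0.45 for Fcgrt and 0.32 for the sum, with the same calls, and the LPS difference of the sum in WT was 0.72. Scaling by library totals alone moved the median of all genes by -0.663 for LPS in WT, and the members with it. Their LPS differences in WT were then 1.26 for Fcgr2b, 0.61 for Fcer1g, -0.90 for Fcgr3 and -1.32 for Fcgrt, with the same directions and calls.

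By counts, 6 of 6 members passed the test for LPS in WT, where 76.7% of all genes tested did so, and of these 4 were higher (36.5% of all genes) and 2 lower (40.2%). In KO it was again 6 of 6, against 79.9% of all genes, with 4 higher (38.8%) and 2 lower (41.1%). For the KO label under PBS 2 of 6 were called, against 25.3% of all genes, and both (Fcgr4 and Fcgrt) were lower, as were 13% of all genes. Under LPS 4 of 6 were called, against 41.4% of all genes, with Fcgr2b higher (22.1% of all genes) and Fcgr3, Fcgr4 and Fcgrt lower (19.3%). The interaction was called for 3 of 6 members against 18% of all genes, for Fcgr2b as a positive value (9.78%) and for Fcgr3 and Fcgrt as negative ones (8.26%). With 6 members, 1 call more or fewer moves such a share widely, and nothing is read from it about the family. The median log2 difference of the members was 1.6 for LPS in WT and 2.12 in KO, beside -0.0483 and -0.0413 over all genes, and for the KO label -0.0497 under PBS and -0.126 under LPS, beside 0.000364 and 0.000586. Libraries were free of overlap between WT and KO under PBS for 4 members and under LPS for 4, a state that 48.1% and 45.6% of all genes reached. Between LPS and PBS all 6 were free of overlap in either genotype, as were 78.2% of all genes in WT and 81.3% in KO.

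**Figure D3:**
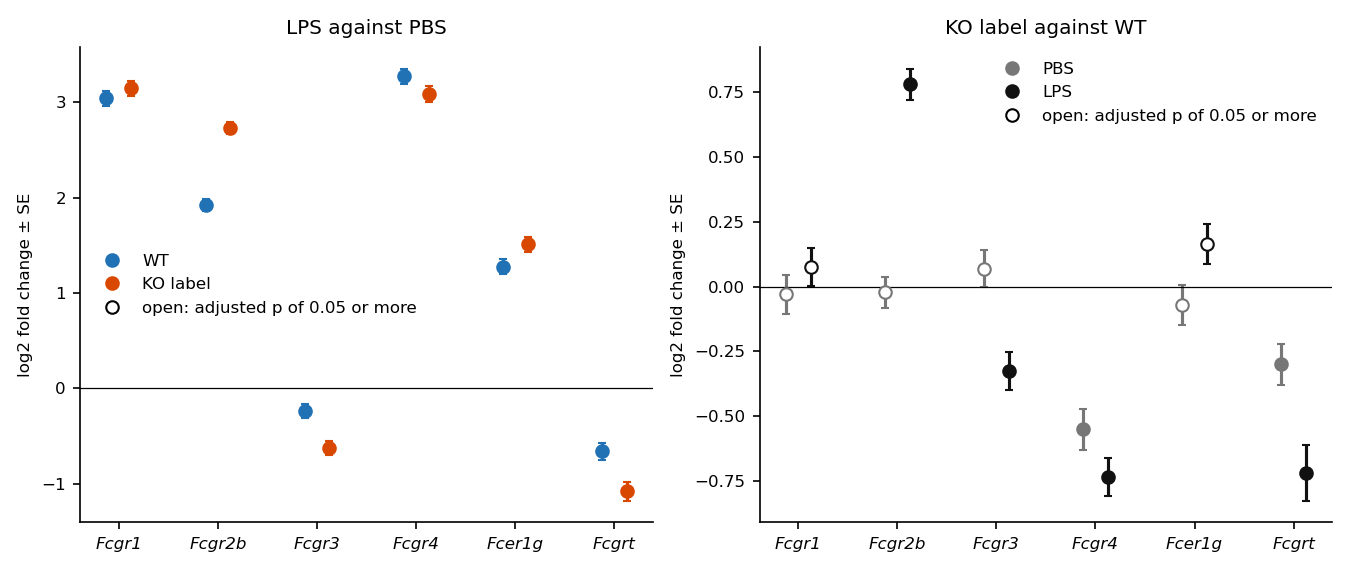
Log2 fold changes with their SE for the 6 genes from the edgeR model, for LPS against PBS in WT and KO (left) and for the KO label against WT under PBS and LPS (right). Filled points passed an adjusted p of 0.05. On the right, Fcgr2b at 0.78 under LPS stands opposite Fcgr4 at -0.73 and Fcgrt at -0.72.

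To set the activating receptors against the inhibitory one, the count of each was divided by that of Fcgr2b within each library, without correction for length, a ratio that no scaling between libraries can alter and that is given as a description without a test. The summed count of Fcgr1, Fcgr3 and Fcgr4 was 4.01 times that of Fcgr2b in WT PBS (geometric mean; SD of 0.077 on the log2 scale, n = 3) and 4.12 times in KO PBS (log2 2.04 ± 0.039). Under LPS it was 2.85 times in WT (log2 1.51 ± 0.048) and 1.46 times in KO (log2 0.54 ± 0.022). Both sides of this ratio hold counts from the division of Fcgr2b and Fcgr3 reads. The ratio fell under LPS in both genotypes and lay 1.96-fold lower in KO LPS than in WT LPS, with SDs many times smaller than that gap. At rest the genotypes were apart by 0.038 on the log2 scale, within the spread of the libraries.

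The activating receptors did not take the same course in this ratio. Fcgr4 over Fcgr2b rose with LPS from 0.288 to 0.732 in WT, but only from 0.199 to 0.256 in KO, so that KO LPS was 2.86-fold under WT LPS. Fcgr1 over Fcgr2b went from 0.662 to 1.44 in WT and from 0.658 to 0.881 in KO, 1.63-fold lower in KO LPS than in WT LPS. These are ratios of counts, not corrected for transcript length, so a value above or under 1 does not rank the receptors. Neither ratio uses Fcgr3, although its denominator holds the estimated share of the reads common to Fcgr2b and Fcgr3. Fcgr3 over Fcgr2b fell from 3.06 to 0.683 in WT and from 3.26 to 0.317 in KO, a ratio that depends on that division on both sides. Without WT LPS replicate 1 the gap between KO LPS and WT LPS was -0.72 for Fcgr1, -1.15 for Fcgr3, -1.55 for Fcgr4 and -0.999 for the sum of the 3, on the log2 scale.

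**Figure D4:**
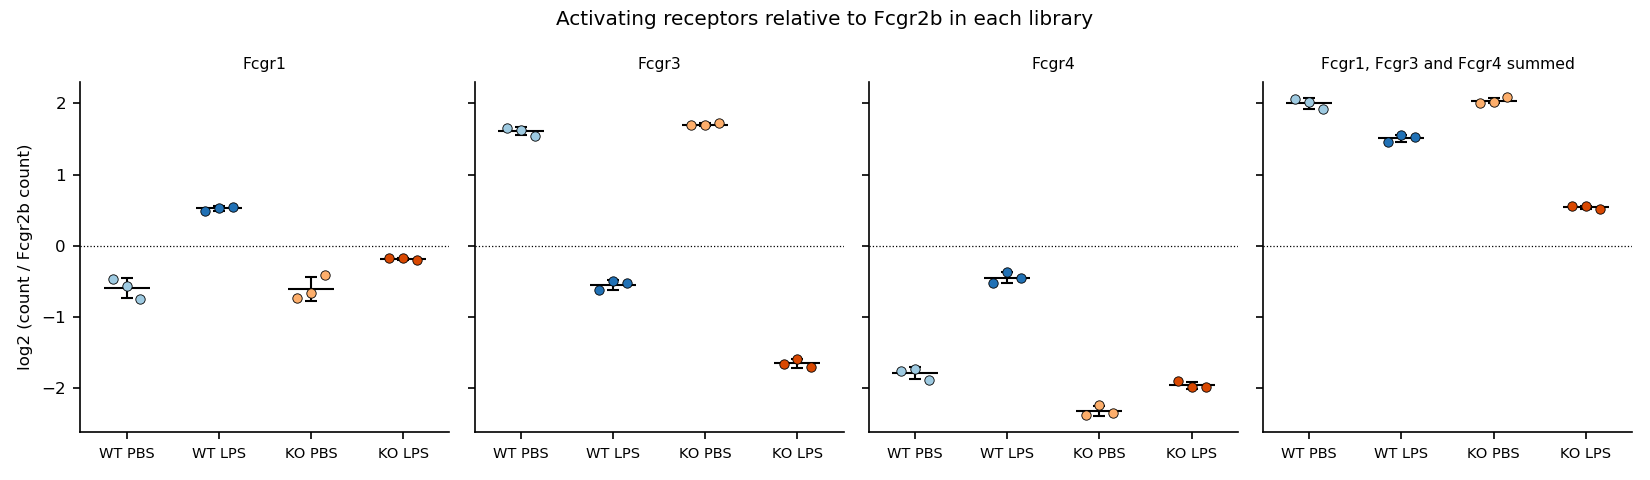
Log2 ratio of the count of Fcgr1, Fcgr3, Fcgr4 or their sum to the count of Fcgr2b (vertical axis; the dotted line at 0 marks equal counts, which are not corrected for length) in each library, 3 per group, with mean and SD. KO LPS lies under WT LPS in every panel, by 0.71 for Fcgr1, 1.11 for Fcgr3, 1.51 for Fcgr4 and 0.97 for the sum.

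To compare genes with each other, CPM was divided by transcript length in kilobases. Fcer1g led in every group, at 1036 ± 8.7 CPM per kb in WT PBS and 2815 ± 246 CPM per kb in KO LPS (SD, n = 3). Fcgr3 followed at rest, with 375.8 ± 2.8 CPM per kb in WT PBS, ahead of Fcgr2b at 46.7 ± 2.2, Fcgr1 at 42.4 ± 2.3 and Fcgr4 at 38 ± 1.2. The ranges of Fcgr2b (44.8 to 49.1) and Fcgr1 (39.9 to 44.3) nearly met there. In WT LPS, Fcgr4 at 366.9 ± 38.2, Fcgr1 at 349 ± 27.5 and Fcgr3 at 319.3 ± 33.3 CPM per kb lay within one another's spread, above Fcgr2b at 177.2 ± 10.6. In KO LPS the order was Fcgr1 at 367.5 ± 17.9, Fcgr2b at 304.7 ± 12.6, Fcgr3 at 254.8 ± 21.1 and Fcgr4 at 220.5 ± 11.8. Fcgrt was last in every group, from 8.95 ± 0.61 CPM per kb in WT PBS down to 3.43 ± 0.19 in KO LPS. The place of Fcgr2b depends on the transcript taken: on its shortest coding transcript of 1084 bases in place of 3544, its level in KO LPS was 996.3 ± 41.3 CPM per kb, above all but Fcer1g.

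Since Fcgr1 and Fcgr4 rose together, the promoters were read for motifs of factors that act in macrophages. The table of RefSeq promoters (GRCm38.p6, 250 bases before to 50 after the gene start) held entries for all 6 members among 27025. Motifs were searched on both strands as TTCNNNGAA, the interferon-gamma activated site (GAS), GAAA repeated after a gap of any pair of bases, the interferon-stimulated response element (ISRE), GAGGAA, the core of PU.1 sites, and GGAA followed after such a gap by GAAA, the composite element of PU.1 with interferon regulatory factors. The ISRE and composite patterns can overlap. In capitals below are the matches in the promoters of Fcgr1 (chr3:96293920-96294219, minus strand), Fcgr4 (chr1:171018676-171018975, plus strand) and Fcgr2b (chr1:170976022-170976321, minus strand), the receptors with the largest LPS differences.
Fcgr1: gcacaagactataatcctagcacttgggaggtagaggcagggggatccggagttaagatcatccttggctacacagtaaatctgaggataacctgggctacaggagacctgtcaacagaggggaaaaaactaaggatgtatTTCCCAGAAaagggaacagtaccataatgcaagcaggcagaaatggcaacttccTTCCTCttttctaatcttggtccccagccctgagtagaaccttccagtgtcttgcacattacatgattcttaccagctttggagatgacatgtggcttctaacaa
Fcgr4: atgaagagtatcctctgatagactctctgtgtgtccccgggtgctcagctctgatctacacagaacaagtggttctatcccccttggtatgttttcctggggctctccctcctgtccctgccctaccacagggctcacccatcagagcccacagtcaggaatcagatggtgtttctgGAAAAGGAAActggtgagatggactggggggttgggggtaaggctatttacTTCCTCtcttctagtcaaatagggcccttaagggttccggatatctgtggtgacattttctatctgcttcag
Fcgr2b: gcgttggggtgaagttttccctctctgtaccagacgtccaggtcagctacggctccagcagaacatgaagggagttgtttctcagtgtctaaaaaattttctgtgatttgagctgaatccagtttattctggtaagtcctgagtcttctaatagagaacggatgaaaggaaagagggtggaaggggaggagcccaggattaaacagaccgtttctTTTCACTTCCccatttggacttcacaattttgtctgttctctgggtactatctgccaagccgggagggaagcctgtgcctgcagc
Fcgr1 held a GAS match starting at position -109 from the gene start, and Fcgr4 an ISRE match at -73. Each also held a PU.1 core on the opposite strand, at -55 in Fcgr1 and at -22 in Fcgr4. The window listed for Fcgr3 lies inside the gene model given above rather than at its start, and its motifs are not described. Fcgr2b held a composite match on the opposite strand at -35, and Fcer1g and Fcgrt held none of these letters in the window. Of all promoters in the table, 8.47% held the GAS pattern, 3.49% the ISRE, 28.3% the PU.1 core and 2.79% the composite pattern. A match is a run of letters, not evidence of binding.

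The genes whose levels over the 12 libraries were most like each member were found by the distance between centred log2 CPM profiles among 12063 other genes. Fcgr2b lay closest to Plaur, the urokinase receptor (distance 0.261), and Msr1, a scavenger receptor (0.388). Fcgr1 lay closest to Ccdc86 (0.334), and Fcgr4 to Lap3, an interferon-inducible peptidase (0.56), with C1ra of the complement system next (0.648). Fcer1g lay closest to Tmbim4 (0.124), Fcgr3 to Acad8 (0.162) and Fcgrt to Akr1b8 (0.277). Pearson's r for the 18 nearest genes, 3 for each member, was at least 0.98, a description over the same 12 libraries, which divide by LPS. Among the members themselves Fcgr1 and Fcgr4 were 1.23 apart and Fcgr3 and Fcgrt 1.05, whereas Fcgr4 and Fcgrt were 7.01 apart.

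Genes near the members were called at shares close to or below those of all genes. Within 1 Mb of the chromosome 1 cluster of Fcgr2b, Fcgr3, Fcgr4 and Fcer1g, 15.9% of 44 genes tested were called for the KO label under PBS and 45.5% under LPS, close to the share of all genes under LPS and below it under PBS. Fcrlb, an Fc receptor-like gene at chr1:170906715-170913829, was among those higher under LPS (log2 0.77 ± 0.14; edgeR adjusted p = 0.000301). Around Fcgr1 on chromosome 3 the shares were 20.5% and 38.6% of 44 genes, and around Fcgrt on chromosome 7 they were 14.1% and 40.6% of 64 genes.

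The other Fc-binding genes and the signalling partners were followed with 6 lists of 86 genes, of which 73 were tested. For reading their counts, 36.5% of all genes tested were higher and 40.2% lower for LPS in WT, 38.8% and 41.1% in KO, 12.3% and 13% for the label under PBS, and 22.1% and 19.3% for the label under LPS. Nothing is read from a count as particular to a list. The plot of LPS differences in the lists sets KO against WT beside a line of equal response. By the interaction test 20 of the 73 genes had a positive value and 8 a negative one, where 9.78% and 8.26% of all genes did. Of the other Fc receptors and Fc-binding proteins, 5 of 14 were tested, and 8 more were in the tables at counts too low to test, among them receptors for IgE, IgM and IgA. LPS changed 3 upward and 2 downward in WT and 3 upward and 1 downward in KO. Trim21, a cytosolic receptor for antibody, rose from 7.73 to 147.9 CPM in WT and from 7.78 to 210.5 CPM in KO, with a log2 difference of 0.51 ± 0.053 for the KO label under LPS (edgeR adjusted p = 1.95e-06) and an interaction of 0.50 (adjusted p = 0.00112). Of a list of Tyrobp, a separate ITAM adaptor, and receptors that pair with the gamma chain, 7 of 10 genes were tested. With LPS 3 rose and 3 fell in WT, against 3 and 4 in KO, where Tyrobp was among those that fell. Clec4e (Mincle), a lectin that signals through Fcer1g, went from 31.7 to 1477 CPM with LPS in WT and from 22.9 to 2289 CPM in KO. It was 0.63 ± 0.086 higher on the log2 scale with the KO label under LPS (edgeR adjusted p = 2.88e-05), and its partner Clec4d was 0.50 ± 0.079 higher (edgeR adjusted p = 0.000114). Pira6 and Pira2, paired immunoglobulin-like receptors, were lower with the label under LPS, at -0.55 ± 0.066 and -0.25 ± 0.048 (edgeR adjusted p of 8.24e-06 and 0.000482), which made 2 higher and 2 lower in this list.

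**Figure D5:**
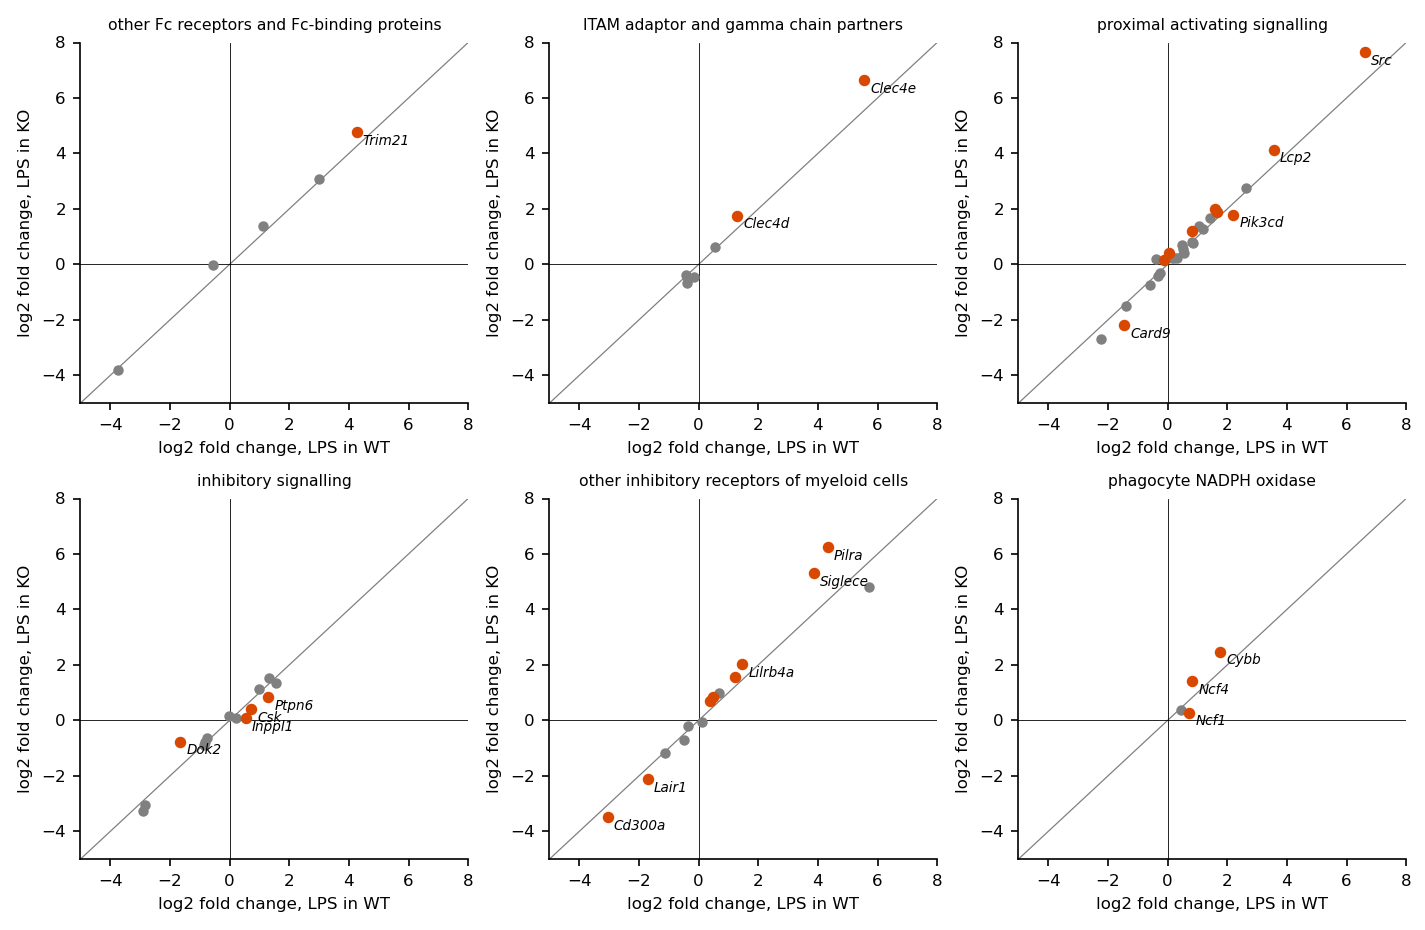
Log2 fold change with LPS in WT (horizontal) and in KO (vertical) for tested genes of each of the 6 lists. The diagonal is equal response, and orange points passed the interaction test. Pilra, Siglece, Clec4e and Src lie above the diagonal at the upper end, and Dok2 lies above it at the lower end.

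Proximal activating signalling, from the Src family to Syk, Plcg2 and the NADPH oxidase switches, was tested in 28 of 28 genes. LPS raised 18 and lowered 7 in WT (76.7% of all genes were called), and raised 20 and lowered 6 in KO (79.9%). The median log2 difference was 0.524 in WT and 0.643 in KO, beside -0.0483 and -0.0413 over all genes. The adaptor Lcp2 (SLP-76) rose from 63.5 to 746.8 CPM in WT and from 58.6 to 1028 CPM in KO. Under LPS the KO label changed 9 upward and 5 downward, with the kinase Fgr at 0.45 ± 0.061 and Lcp2 at 0.46 ± 0.047 (edgeR adjusted p of 2.89e-05 and 1.77e-06). The phosphoinositide kinase Pik3cd was -0.57 ± 0.092 and the adaptor Blnk -0.33 ± 0.058 (edgeR adjusted p of 0.000154 and 0.000258). Under PBS 2 were higher and 6 lower with the label. Among them were Card9 at 0.39 ± 0.071 (edgeR adjusted p = 0.000766) and, at means under 5 CPM in both groups, Lat at -1.70 ± 0.17 and Src at -0.84 ± 0.22 (edgeR adjusted p of 2.83e-06 and 0.0114), which are named here after their values were seen.

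Inhibitory signalling, the arm downstream of Fcgr2b, was mixed. With LPS 7 of 14 genes rose and 6 fell in WT, and 5 rose and 6 fell in KO. Inpp5d, which encodes SHIP1, the phosphatase recruited by FcγRIIb, fell from 173.9 to 24.2 CPM in WT (log2 -2.85 ± 0.087) and from 179 to 21.5 CPM in KO (log2 -3.05 ± 0.089), with adjusted p of 1.06e-14 and 4.46e-15 by edgeR. Its fall ran opposite to the rise of Fcgr2b in both genotypes. Ptpn6, which encodes SHP-1, rose from 190.6 to 468.7 CPM in WT and stood at 199.6 and 355.2 CPM in KO, with a log2 difference of -0.40 ± 0.049 for the label under LPS (edgeR adjusted p = 1.02e-05). Csk, the kinase that restrains the Src family, and Inppl1, which encodes SHIP2, were also lower with the KO label under LPS, at -0.53 ± 0.070 and -0.55 ± 0.077 (edgeR adjusted p of 2.08e-05 and 3.61e-05). In all the label changed 3 of the 14 upward and 5 downward under LPS.

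Of 15 other inhibitory receptors of myeloid cells, 14 were tested, and under LPS 7 were higher and 2 lower with the KO label, where 22.1% and 19.3% of all genes were. Their median log2 difference was 0.186, beside 0.000586 over all genes. Lilrb4a under LPS had a mean of 2272 CPM with WT and 3591 CPM with KO (log2 0.66 ± 0.078; edgeR adjusted p = 6.69e-06), Cd300lf was 0.41 ± 0.078 higher, and Lair1 (-0.34 ± 0.071) and Cd300a (-0.31 ± 0.074) were lower. Pilra was lower with the label under PBS, at 8.53 against 2.73 CPM (log2 -1.64 ± 0.12; edgeR adjusted p = 1.17e-07). Under LPS it went the other way, at 171.5 CPM in WT against 207.2 CPM in KO (log2 0.27 ± 0.078; edgeR adjusted p = 0.0103), a value named here after it was seen. The phagocyte NADPH oxidase, which Fc receptors switch on, was tested in 5 of 5 genes, and under LPS the label raised 3 and lowered 2. Cybb, its catalytic subunit, reached a mean of 3168 CPM with WT and 4884 CPM with KO (log2 0.62 ± 0.055; edgeR adjusted p = 3.26e-07), with Ncf4 (0.54 ± 0.059) also higher. Cyba (-0.25 ± 0.063) and Ncf1 (-0.27 ± 0.052) were lower by edgeR, with adjusted p of 0.00437 and 0.000486. Across the 6 lists, the label changed 26 of 73 genes upward and 17 downward under LPS, and 9 upward and 16 downward under PBS, where 41.4% and 25.3% of all genes were called. Without WT LPS replicate 1 the number of list genes called under LPS was 48.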

How the data were processed

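RNA sequencing with single-end 50-base reads was done on 12 libraries of peritoneal macrophages. The authors deposited an expected count for each gene, without scaling between libraries. The submitters' processing notes name Bowtie2, RSEM 1.3.1 and GRCm38.p6, whereas the methods of the study name STAR and HTSeq. Decimals stood in 24.6% to 26.9% of the genes of each library, and such a count can move between genes that share reads. The members and lists were chosen with earlier results of these data known.

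Counts were rounded and fitted with edgeR 4.0.16 (limma 3.58.1, R 4.3.3): filterByExpr on the 4 groups, TMM scaling and 1 quasi-likelihood model of the 12 libraries with 5 contrasts. P-values were two-sided and adjusted by Benjamini-Hochberg over 12064 genes, with a threshold of 0.05. The typical biological coefficient of variation was 6.99%. An SE is the log2 fold change divided by the square root of F. Simulated data with 200 genes changed by 1 on the log2 scale gave back 94.5% of them for LPS in WT and 86% for the interaction. So few changes cannot test the scaling under LPS, where 76.7% of all genes were called in WT. Counts of Fcgr2b and Fcgr3 were also added before a fit. List genes named in the text had, per list and contrast, the largest changes among those called with at least 5 CPM in the higher group, at most 3 in each direction, and some are not reported here. Alternatives were DESeq2 1.42.0, other scalings and filters, only the libraries compared, a replicate block and leaving out each library. Transcript words, alignments and motifs were computed in Python 3.11.15 with Biopython 1.88 from GENCODE M21 and RefSeq promoters, both GRCm38. No molecular identifiers were used, and where replicates are not separate animals p-values measure only the spread between these samples.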

Additional observations from a re-analysis of the deposited data

Results flagged for a closer look

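The LPS response differed between the genotype labels, by the edgeR interaction test over all genes (LPS difference in KO minus that in WT, log2 scale), for 3 of the 6 Fc receptors: Fcgr2b at 0.80, Fcgr3 at -0.39 and Fcgrt at -0.42. It also differed for the summed count of Fcgr2b and Fcgr3 at 0.38 and for Ythdf1 at -0.42. Ythdf1 was higher with the label under PBS (0.40), while under LPS its label difference was -0.028. Among receptors and adaptors outside the family, the interaction was called for Trim21 (0.50), Clec4d (0.45) and Clec4e (1.10). Of the 28 activating signalling genes it was called as positive for 8 (9.78% of all genes) and as negative for 2 (8.26%), among them Src (1.02), Lcp2 (0.58), Pik3cd (-0.40) and Card9 (-0.74). Src had PBS means of only 2.36 CPM (WT) and 1.31 CPM (KO), and its label difference under LPS was 0.18 with an adjusted p of 0.158 by edgeR. Of the inhibitory signalling genes it was called for Inppl1 (-0.46), Ptpn6 (-0.47), Csk (-0.32) and Dok2 (0.89). Of the other inhibitory receptors it was called for 8 of 14 (6 positive, 2 negative), where 18% of all genes were called (9.78% positive, 8.26% negative), with the largest values in each direction for Lilrb4a (0.57), Siglece (1.43), Pilra (1.91), Cd300a (-0.45) and Lair1 (-0.42), and of the NADPH oxidase for Cybb (0.70), Ncf4 (0.59) and Ncf1 (-0.45). By the rule for named genes, called genes with smaller values are left out of this account. In the 12 fits that left out a library, the call was kept in 4 for Fcgrt, 4 for Pik3cd (adjusted p up to 0.113), 7 for Csk (up to 0.102) and 11 for Siglece (up to 0.0673). Siglece had PBS means of only 0.957 CPM (WT) and 0.54 CPM (KO). With library totals alone as the scaling, the value for Clec4d was 0.32 with an adjusted p of 0.0737 by edgeR. With 3 libraries per group, no test for a single outlying library was made.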

How the results depend on the processing

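All 6 members kept their direction and their call for LPS in both genotypes under every alternative run, as did Fcgr2b, Fcgr3, Fcgr4 and Fcgrt for the KO label under LPS, Fcgr4 for the label under PBS, and the interactions of Fcgr2b and Fcgr3. Scaling by library totals alone shifted the median of all genes by -0.663 (LPS in WT), -0.801 (LPS in KO), 0.0485 (label under PBS), -0.0893 (label under LPS) and -0.138 (interaction), and upper-quartile scaling by -0.31 and -0.356 for LPS in WT and KO. With totals alone 2223 genes were higher and 8247 lower for LPS in WT (4404 and 4850 with TMM), 2202 and 8387 in KO (4682 and 4953), 1991 and 1241 for the label under PBS (1486 and 1572), 1919 and 3150 under LPS (2663 and 2327), and 627 and 1945 for the interaction (1180 and 996). Upper-quartile scaling gave 3146 and 6520 for LPS in WT, 3345 and 6557 in KO, 1280 and 1755 for the label under PBS, 2077 and 2921 under LPS, and 932 and 1229 for the interaction.

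With totals alone the sign turned for Fcgr1 (label under PBS 0.019, label under LPS -0.016, interaction -0.035), Fcgr2b (label under PBS 0.027), the sum of Fcgr2b and Fcgr3 (LPS in WT -0.0069), Pira6 (LPS in WT -0.097, in KO -0.19) and Cyba (LPS in KO -0.42), and the interaction of the sum was 0.24. Without a filter on low counts the interaction of Fcgrt was -0.43 with an adjusted p of 0.0547. Fitting only the libraries compared called 4627 genes for the label under PBS, against 3058.

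Leaving out each library in turn, the label under PBS ranged from -0.081 to 0.046 for Fcgr1, from -0.028 to 0.025 for Fcgr2b and from -0.33 to -0.23 for Fcgrt, with 1 to 2 members called, 16 to 30 list genes called (lowest without KO PBS replicate 1 or 2) and 1992 to 3896 of all genes called (lowest without KO PBS replicate 1). The label under LPS ranged from 0.072 to 0.23 for Fcer1g and from -0.055 to 0.012 for Ythdf1. The interaction ranged from -0.49 to -0.36 for Fcgrt and from -0.26 to -0.12 for Fcgr4. For the label under PBS, the log2 ratio to Fcgr2b ranged from -0.11 to 0.054 for Fcgr1 and from -0.0057 to 0.069 for the 3 activating receptors summed. Causes of these shifts were not tested.

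Replicate numbers did not pair the samples: 6 of 18 same-numbered pairs correlated above 0.1 (range -0.258 to 0.253). A fit with the replicate number as a block called 9267, 9631, 2969, 5030 and 2132 genes in the 5 contrasts, and it changed no call of a member. Lyn lost its call for the label under PBS in that fit.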
